A study of Mus musculus with 20 samples.

Results

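Tandem 3′ splice sites were taken from the table of splice junctions as pairs of annotated junctions with the same chromosome, strand and 5′ splice site whose 3′ splice sites lay exactly 3 bp apart. The rule found 663 such pairs among 16513 pairs of annotated junctions that shared a 5′ site, in 594 host genes. It used annotation and positions and no read count. The pairs stood on 638 different pairs of 3′ sites, since 22 of these were reached from more than 1 5′ site, and 47 of the 663 pairs therefore shared their 3′ sites with another pair.

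At a tandem acceptor the spliceosome can end the same intron at either of a pair of neighbouring AG dinucleotides. Use of the intron-proximal site, the one nearer to the 5′ site, keeps 3 more bases in the mRNA. In coding sequence the choice can insert, delete or exchange an amino acid, or add a stop codon, without a shift of the reading frame. U2AF1 is the subunit of the U2AF complex that contacts the AG and the bases around it, the S34F substitution lies in one of its zinc fingers and is known to change preference for the base just before the AG (position -3, counted back from the exon), and sudemycin D6 is a modulator of SF3B1, a protein that recognizes the branch point.

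RNA came from bulk bone marrow cells of 20 mice in 4 groups of 5, named by transgene and infusion: U2AF1(WT) with vehicle, U2AF1(WT) with sudemycin D6, U2AF1(S34F) with vehicle and U2AF1(S34F) with sudemycin D6. All were lethally irradiated wild-type recipients of pooled marrow from transgenic donors, left at least 6 weeks to engraft, so the transgene was carried by the grafted blood cells and not by the host's stroma. All mice, controls included, carried rtTA, ate doxycycline chow for 7 days to induce the U2AF1 transgene and were infused through a jugular catheter on the last 5 of those days. The labels give neither the sex nor the age of the mice, nor which mice shared a donor pool, so that p-values measure the spread between these mice.

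Each mouse had between 41145892 and 62138138 reads counted on genes and between 34384214 and 64813149 counted on junctions, with group medians on junctions from 46796260 in WT with vehicle to 56739447 in S34F with vehicle. Xist was at 777 to 1632 CPM (counts scaled to the library total) in the 10 WT mice and at 0.0188 to 0.137 CPM in the 10 S34F mice, and the summed level of 4 Y-linked genes was at most 0.0839 CPM in WT and at least 187 CPM in S34F, so every comparison of genotypes was also one of marrow with Xist and marrow with Y-linked RNA, and the 2 cannot be told apart. The 10 neutrophil markers, all of them measured, summed to 61157 to 89148 CPM in WT and to 75446 to 125445 CPM in S34F mice, while the 7 stroma markers summed to at most 289 CPM in any mouse. The part of these differences in the results was not tested, and in bulk marrow fewer cells of a type and less RNA per cell cannot be told apart. U2af1 was at 34.02 to 50.1 CPM in WT and 45.9 to 60.2 CPM in S34F mice, a gene count that does not separate the transgene from the endogenous gene or the mutant from the wild-type sequence.

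The sequences of 12 pairs are shown because the results turn on them: the first 7 had the most reads on their less used site or, for Gnas, an unusual proximal site, and the last 5 passed a test between groups. Each runs 5′ to 3′ on the gene's strand in build mm9 across the end of the intron into the exon, and the 6 capitals mark the tandem site, the first 3 ending at the proximal and the last 3 at the distal site.
S100a9 (chr3:90499213-90499239, minus strand): tgtttcccctattttcaAAGAAGagca
Rbm3 (chrX:7720452-7720478, minus strand): acaatatcgctttttccCAGAAGccag
Itgam (chr7:135245128-135245154, plus strand): ctgtcactgtctcctttTAGCAGaggg
4632428N05Rik (chr10:59831257-59831283, plus strand): tcccaattctgcttctcTAGCAGcaac
Txnip (chr3:96362792-96362818, plus strand): cccttgtctttgtttccCAGCAGgtga
Fxyd5 (chr7:31822944-31822970, minus strand): ctcctttccttccaccaAAGCAGaagc
Gnas (chr2:174167131-174167157, plus strand): ttttcctttcaatcccaCTGTAGtgag
Rcan3 (chr4:134981354-134981380, minus strand): tcctcggttttttctttAAGAAGtatc
Cap1 (chr4:122549693-122549719, minus strand): agacatttgatctgtttCAGCAGgtgg
Traf7 (chr17:24653538-24653564, minus strand): tgacagccatgtcttttCAGCAGctga
Josd2 (chr7:51724157-51724183, plus strand): ctccttgtcccaccccgCAGCAGgagc
H3f3a (chr1:182733330-182733356, minus strand): tttctcttttattgttgCAGGAGgcaa
S100a9, Rcan3, Cap1 and Josd2 carried their tandem site in an untranslated region, and the other 8 in coding sequence.

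Of the 663 pairs, 649 (97.9%) had AG at both 3′ sites and 657 had GT at the shared 5′ site. The rule did not name these bases, but it took annotated junctions only, so the counts are no independent check of the pairs. By the gene annotation of the same build, 567 lay in coding sequence, 90 in an untranslated region and 6 in a non-coding transcript. Among the coding pairs the intron fell between codons (phase 0) in 216, after the first base of a codon (phase 1) in 224 and after the second base (phase 2) in 110. A further 17 had more than 1 phase. Both sites were annotated exon starts at 644 pairs.

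Use of the proximal site was measured in each mouse as the proximal share, the reads on the proximal junction divided by the reads on both. A pair counted as measured when its 2 junctions together averaged 10 reads or more and neither was empty, which held for 533 of the 663 pairs over the 20 mice and not for 130. The measured pairs had from 10.1 to 437777 reads per mouse, with a median of 157.6. Both sites were in use at most of them: the mean share lay between 5% and 95% at 457 pairs (85.7%), above 95% at 60 and below 5% at 16. The median share was 0.666, with quartiles at 0.396 and 0.877, and the proximal site took the larger part of the reads (share above 0.5) at 344 pairs (64.5%). For scale, 3′ sites 4 to 200 bp apart that passed the same minimum (2596 pairs) had a median share of 0.740 at a median of 130 reads per mouse, but only 46.2% of them lay between 5% and 95%, and their less used site had a median of 5.4 reads against 25.4 at the tandem sites. These values describe the annotated sites, since a site had to be annotated to enter the table.

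The share varied with the base at position -3 of each site. Where the proximal site was CAG and the distal GAG, the median share was 0.986 (15 pairs). For CAG then AAG it was 0.939 (43 pairs), for TAG then AAG 0.877 (25 pairs) and for TAG then TAG 0.828 (13 pairs). By these medians, distal sites with A or G before the AG were little used beside a proximal CAG or TAG. Single pairs differed, with shares down to 0.470 for CAG then AAG and 0.0959 for TAG then AAG.

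The largest class, CAG then CAG, had a median of 0.627 over 235 pairs with quartiles at 0.391 and 0.833. TAG then CAG stood at 0.572 (93 pairs) and CAG then TAG at 0.690 (26 pairs). With A or G at the proximal site and C or T at the distal site the order turned. AAG then CAG had a median of 0.384 (35 pairs), AAG then TAG of 0.414 (10 pairs), and GAG then CAG of 0.161 (6 pairs). AAG then AAG, with the same base at both sites, stood at 0.796 (15 pairs).

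The order of the classes recurred in the single mice, although all mice share the same sites and are no independent sample of them. The median for CAG then AAG, computed in each mouse, ran from 0.913 to 0.953, that for CAG then CAG from 0.605 to 0.673, and that for AAG then CAG from 0.287 to 0.462. CAG then AAG stood above CAG then CAG, and CAG then CAG above AAG then CAG, in 20 of 20 mice. The neighbours CAG then CAG and TAG then CAG lay closer, from 0.548 to 0.629 in the latter, and kept their order in 19 of 20 mice. TAG then TAG and AAG then AAG kept theirs in 17 of 20.

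**Figure D1:**
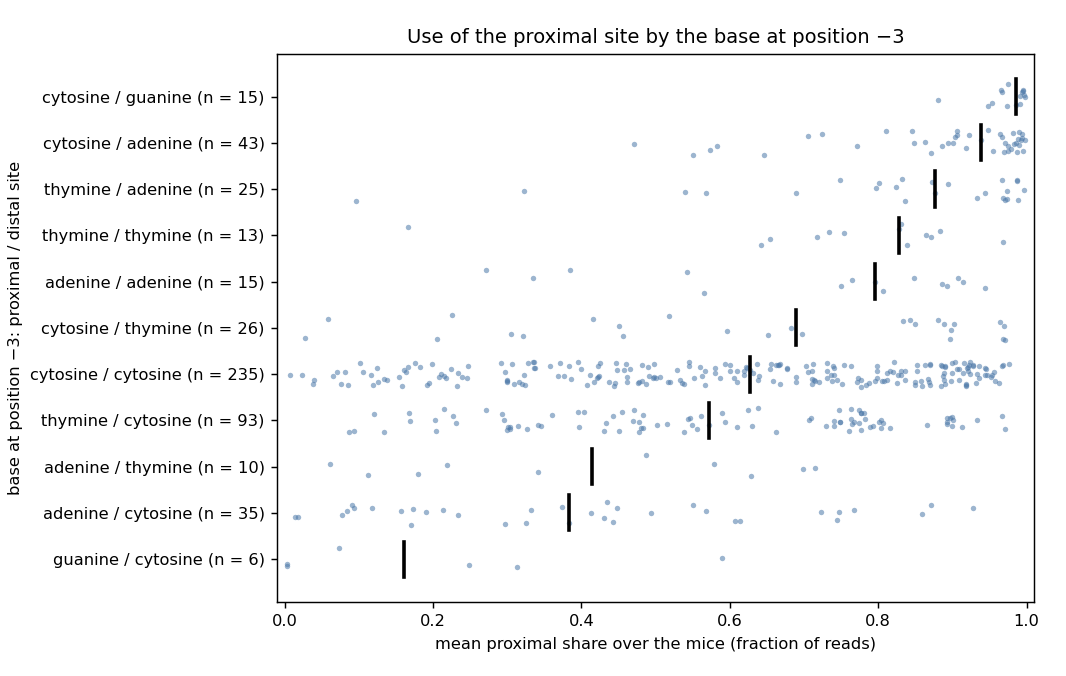
Proximal share of 516 tandem pairs (x axis, mean over the mice, fraction of reads) by the base at position -3 of the proximal and of the distal site (y axis, the 11 classes with at least 6 pairs). Points are pairs and bars are class medians, which fall from 0.986 for cytosine then guanine to 0.161 for guanine then cytosine while the points of the largest class, cytosine at both sites, spread over nearly the whole axis.

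Pairs with the same bases still differed widely. Within CAG then CAG the share ran from 0.00745 to 0.977. The rank correlation of the share with the pyrimidine content of the 17 bases before the tandem site was 0.110, and with intron length 0.164, over these 235 pairs, both weak and given as descriptions over sites of the same libraries. The median was 0.662 at the 199 coding pairs and 0.498 at the 35 in untranslated regions. In coding sequence it was 0.685 in phase 0, 0.654 in phase 1 and 0.639 in phase 2. Over the 93 pairs of TAG then CAG both correlations had the other sign, at -0.155 and -0.208. The median of that class was 0.581 at its 82 coding pairs and 0.555 at its 11 in untranslated regions. By phase its coding medians were 0.576 in phase 0, 0.684 in phase 1 and 0.418 in phase 2. Differences between the classes were not tested.

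The 6 pairs with the most reads on their less used site are described first, a choice that disfavours pairs with extreme shares. S100a9, which encodes a subunit of the neutrophil protein calprotectin, had an AAG then AAG site with a mean of 437777 reads per mouse. Its proximal share was 0.804, 0.792, 0.794, 0.807 and 0.795 in the WT mice with vehicle and 0.795, 0.784, 0.793, 0.786 and 0.784 in the S34F mice with vehicle. With sudemycin it was 0.796, 0.816, 0.796, 0.810 and 0.785 in WT and 0.802, 0.790, 0.797, 0.791 and 0.793 in S34F.

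All 4 groups overlapped in S100a9, although the reads on the pair ran from 109087 to 307910 in WT mice with vehicle and from 567234 to 1119832 in S34F mice with vehicle. S100a9 itself was at 22894 ± 2492 CPM (SD, n = 5) and 38125 ± 6247 CPM (SD, n = 5) in these groups, and it is one of the neutrophil markers. The difference in share between the genotypes under vehicle was -0.010 (log2 odds -0.087 ± 0.034, SE) with an adjusted p of 0.314 in edgeR's quasi-likelihood test.

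The other pairs of this choice had mean shares from 0.214 to 0.789. Rbm3, a cold-inducible RNA-binding protein gene on the X chromosome, used its proximal CAG at 0.471 ± 0.021 in WT and 0.462 ± 0.007 in S34F mice with vehicle (SD, n = 5). Itgam, the integrin chain CD11b of myeloid cells, used its proximal TAG at 0.436 ± 0.019 and 0.428 ± 0.005, and 4632428N05Rik, also known as Vsir or VISTA and encoding an inhibitory receptor of myeloid cells, used the same pair of trinucleotides, TAG then CAG, at 0.783 ± 0.015 and 0.788 ± 0.006.

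Itgam and 4632428N05Rik thus had the same 6 bases at the tandem site and shares that did not overlap in any mouse, with 0.466 the highest for Itgam and 0.759 the lowest for 4632428N05Rik. Txnip, the thioredoxin-interacting protein gene, stood at 0.552 ± 0.023 in WT and 0.536 ± 0.015 in S34F mice with vehicle. Fxyd5, which encodes a regulator of the sodium pump, stood at 0.204 ± 0.011 and 0.219 ± 0.008 (SD, n = 5).

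Gnas, the gene of the stimulatory G protein alpha subunit, was named after its values were seen, because its proximal site ended in CTG rather than AG. This site took 0.661 of the reads over all mice, from 0.621 to 0.694, and its group means ran from 0.644 ± 0.019 to 0.669 ± 0.009 (SD, n = 5). None of these 7 pairs was called between groups by edgeR's test in any of the 5 comparisons described next, although S100a9 was called between the genotypes under vehicle when no read minimum was set. At the 343 pairs with a mean of at least 100 reads the median standard deviation within a group was 0.0418. This is a spread of single mice, wider than that of the group means compared below, and it differs between pairs.

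**Figure D2:**
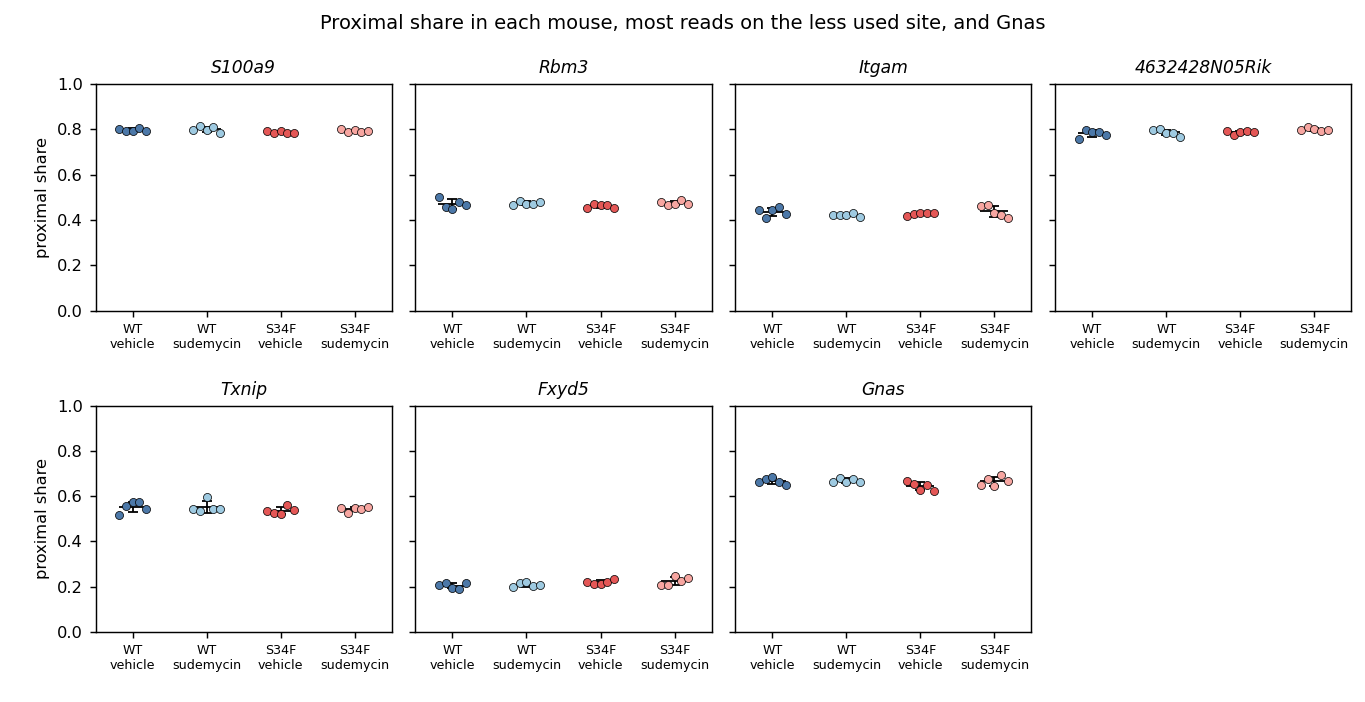
Proximal share (y axis, fraction of reads, 0 to 1) in each mouse for Gnas and the 6 tandem pairs with the most reads on their less used site, by group (x axis). Points are mice and bars are the mean ± SD of 5 mice. The groups overlap in every panel while the pairs stand apart, from 0.214 on average for Fxyd5 to 0.796 for S100a9.

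Groups were compared to ask whether the mutant transgene, the drug or both shift the choice within a tandem site. Each pair was tested with edgeR's quasi-likelihood test on proximal and distal counts with 1 coefficient per mouse, p-values were adjusted by the Benjamini-Hochberg method over every pair of junctions that shared a 5′ site, and a pair was called at a false discovery rate (FDR) under 10% and a change in share of more than 1%. Changes in share are S34F minus WT, sudemycin minus vehicle or, for the combination, treated S34F minus vehicle-treated WT mice; values below 0 are shifts toward the distal site.

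Under vehicle, 1 of 527 tested tandem pairs (0.19%) was called between S34F and WT, against 3.75% of all 12784 pairs tested and 2.75% of the 2432 pairs 4 to 200 bp apart. Under sudemycin, 3 of 525 tandem pairs (0.571%) were called between the genotypes, against 3.59% of all pairs and 3.26% of pairs 4 to 200 bp apart. Sudemycin against vehicle gave 0 of 523 tandem pairs in WT and 0 of 527 in S34F, where 1.11% and 1.38% of all pairs and 0.671% and 0.816% of pairs 4 to 200 bp apart were called.

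At an unadjusted p under 0.05, edgeR's test passed 22 tandem pairs (4.21%) for the drug in WT and 25 (4.74%) in S34F, against 9.64% and 9.49% of all pairs and 8.6% and 7.71% of those 4 to 200 bp apart. By limma on the shares the 2 drug comparisons gave 0 and 1 calls, and by DESeq2 1 and 1. The counts at the unadjusted limit moved with the tool. For the drug in WT and in S34F, limma passed 41 and 32 tandem pairs and DESeq2 22 and 22. With an estimated dispersion, edgeR passed 5 and 9. The shares of all pairs at these settings are not given here. Between the genotypes, 26 tandem pairs (4.93%) passed this unadjusted limit under vehicle and 28 (5.33%) under sudemycin, against 13.3% and 13.5% of all pairs and 11.7% and 12.9% of those 4 to 200 bp apart.

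For S34F with sudemycin against WT with vehicle, 2 of 525 tandem pairs (0.381%) were called, against 6.25% of all pairs and 4.27% of those 4 to 200 bp apart, and 25 tandem pairs (4.76%) passed the unadjusted limit, against 15.9% and 13.7%. The difference between the drug effects of the genotypes, tested over all 20 mice, was called at 0 of 533 tandem pairs and at 0 of all 13595 pairs by edgeR, with 22 tandem pairs (4.13%) at an unadjusted p under 0.05 against 4.74% of all pairs and 5.43% of those 4 to 200 bp apart, and the lowest tandem FDR was 0.969. By edgeR's test at these limits, 6 tandem pairs were called in some comparison and none in more than 1, while DESeq2 called Josd2 both between the genotypes under sudemycin and in the combination. The 5 comparisons share mice with each other and are not independent.

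**Figure D3:**
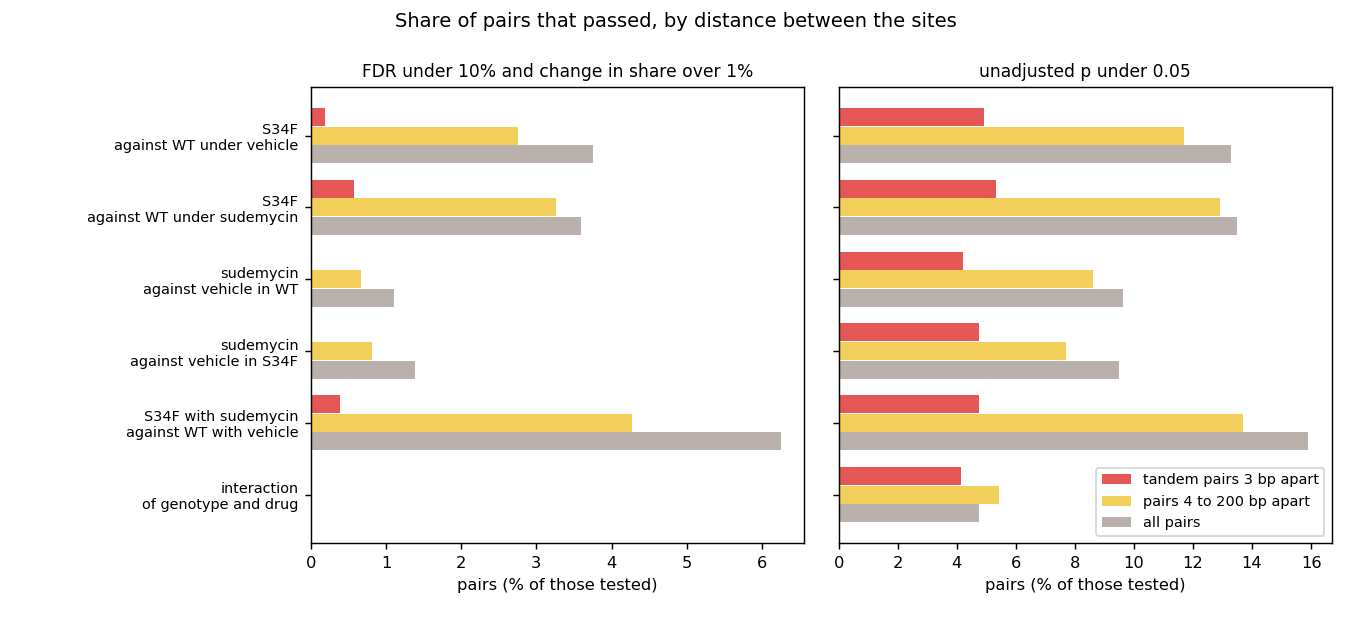
Percent of tested pairs (x axis) that passed edgeR's test in each comparison (y axis). The limits are FDR under 10% with a change in share over 1% (left, for the interaction no limit on the change) and an unadjusted p under 0.05 (right). Bars are tandem pairs 3 bp apart, pairs 4 to 200 bp apart and all pairs; the tandem bars are the shortest in the 5 comparisons of groups, from 0% to 0.571% on the left and from 4.21% to 5.33% on the right.

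The sizes of the changes set how closely the shares were held. The median absolute change in share was 0.0237 between the genotypes under vehicle and 0.0259 under sudemycin, and 0.0275 and 0.0215 for the drug in WT and in S34F. The change was under 0.05 at 392 of the 527 tested pairs (74.4%) for genotype under vehicle and at 376 of 525 (71.6%) under sudemycin. For the drug it was under 0.05 at 361 of 523 (69.0%) in WT and at 402 of 527 (76.3%) in S34F. The 95% interval of the odds of the proximal site lay within 2-fold either way at 206, 219, 184 and 243 pairs in the same order, and at the rest the interval reached past 2-fold on at least 1 side.

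Over the 292 pairs with a share between 5% and 95% and a mean of at least 100 reads, the median share of a mouse ran from 0.626 to 0.642 in WT with vehicle, from 0.638 to 0.652 in WT with sudemycin, from 0.619 to 0.648 in S34F with vehicle and from 0.632 to 0.646 in S34F with sudemycin. All 4 ranges overlapped, with group medians of 0.639, 0.652, 0.637 and 0.635 in the same order. The WT mice with sudemycin stood at 0.652, 0.638, 0.652, 0.652 and 0.646. Their overlap with WT mice with vehicle rested on the mouse at 0.638, and the difference was not tested. The signs of the changes were mixed. For genotype, 283 pairs were up and 243 down under vehicle, and 261 up and 262 down under sudemycin. For the drug, 283 were up and 240 down in WT, and 263 up and 264 down in S34F. The combination had 300 up and 224 down.

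Rcan3, which encodes a regulator of calcineurin, was the pair called between genotypes under vehicle. Its proximal AAG took 0.437, 0.375, 0.273, 0.250 and 0.387 of the reads in the WT mice and 0, 0.0714, 0.138, 0 and 0.188 in the S34F mice, where zero stands for 0 of 43 and 0 of 41 reads and allows a share of up to 6.98% and 7.32% by counting error. Every S34F mouse lay below every WT mouse. The share was 0.344 ± 0.080 in WT and 0.0793 ± 0.0833 in S34F (SD, n = 5), a change of -0.265 (log2 odds -2.50 ± 0.69, SE; FDR 0.0259; two-sided exact permutation p = 0.00794, the smallest that 5 against 5 mice allow).

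With sudemycin the WT mice had Rcan3 shares of 0.444, 0.609, 0.750, 0.215 and 0.320 on 8 to 65 reads, and the S34F mice 0.160, 0.0851, 0.413, 0.146 and 0.170. These groups overlapped, and the change of -0.273 was not called (FDR 0.433, exact permutation p = 0.0476). The level of Rcan3 was 11.5 ± 1.5 CPM in WT and 12.4 ± 0.8 CPM in S34F with vehicle (SD, n = 5). The Rcan3 site has A, not T, at position -3 of both sites.

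Cap1, a regulator of actin turnover, was called between the genotypes under sudemycin. Its proximal CAG took 0.629, 0.647, 0.661, 0.666 and 0.701 of the reads in WT and 0.547, 0.648, 0.534, 0.558 and 0.594 in S34F, so that 4 of the 5 S34F mice lay below every WT mouse and 1 inside their range. The change was -0.0845 (0.661 ± 0.027 against 0.576 ± 0.046, SD, n = 5; log2 odds -0.54 ± 0.16, SE; FDR 0.0558; exact permutation p = 0.0238). Under vehicle the change was -0.0113 (FDR 0.961).

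Traf7, a ubiquitin ligase gene, was called in the same comparison. Its share was 0.509, 0.460, 0.559, 0.585 and 0.602 in WT and 0.522, 0.405, 0.467, 0.451 and 0.396 in S34F mice with sudemycin. The groups overlapped, and the change was -0.0949 (0.543 ± 0.058 against 0.448 ± 0.051, SD, n = 5; log2 odds -0.65 ± 0.20, SE; FDR 0.0672; exact permutation p = 0.0476), against -0.0478 under vehicle (FDR 0.719).

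Josd2, which encodes a deubiquitinase, was the third and rested on few reads. Its distal site had 0 of 144 reads over the 5 WT mice with sudemycin, which allows a share of up to 2.08%, and 5, 0, 7, 0 and 8 of 20, 14, 22, 15 and 23 reads in the S34F mice. The S34F mice without distal reads equalled the WT mice, and the change of -0.183 had an FDR of 0.0681 but an exact permutation p of 0.167. Under vehicle the WT mice had 7, 0, 5, 0 and 10 distal reads, and the change between genotypes was 0.110 (FDR 0.730).

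These 3 calls depended on single mice. Cap1 was no longer called without S34F replicate 10, 2 or 6 or WT replicate 9 (FDR 0.122, 0.176, 0.137 and 0.159). Traf7 was not called without S34F replicate 12 or 9 or WT replicate 8 or 9 (FDR 0.174, 0.212, 0.132 and 0.220), and Josd2 not without S34F replicate 10, 2 or 9 or WT replicate 10 or 8 (FDR 0.114, 0.171, 0.204, 0.103 and 0.113). Rcan3 kept its call without any 1 of its 10 mice, with an FDR between 0.0157 and 0.0850.

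H3f3a, a gene of the replacement histone H3.3, had the most reads of the called pairs and the smallest change. Its proximal CAG took 0.947, 0.953, 0.943, 0.940 and 0.947 of the reads in the WT mice with vehicle and 0.956, 0.956, 0.961, 0.960 and 0.957 in the S34F mice with sudemycin, on 7442 to 15977 reads in these 10 mice. Every treated mutant mouse lay above every control mouse. The change was 0.0120 (0.946 ± 0.005 against 0.958 ± 0.002, SD, n = 5; log2 odds 0.36 ± 0.09, SE; FDR 0.0108; exact permutation p = 0.00794), and the FDR stayed between 0.00177 and 0.0424 without any 1 mouse.

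The single steps at H3f3a went the same way but were not called: 0.010 for genotype under vehicle (FDR 0.166), 0.00530 for genotype under sudemycin (FDR 0.414), 0.00674 for the drug in WT (FDR 0.622) and 0.00199 for the drug in S34F (FDR 0.772). H3f3a has processed copies elsewhere in the genome, to which the authors' alignment may have assigned spliced reads. Its distal GAG was the minor site in every mouse, at 300 to 866 reads.

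Wac, which encodes an adaptor of histone ubiquitination, was called in the same comparison on a mean of 26.1 reads per mouse. In WT mice with vehicle its proximal share was 1, 0.677 and 0.389 in the 3 mice with reads, and the other 2 had 0 reads on either site. In S34F mice with sudemycin it was 1, 0.892, 1, 0.929 and 1. The groups overlapped, the change of 0.275 had an FDR of 0.0615, and without WT replicate 5 the change was 0.125 (FDR 0.476). Without S34F replicate 2 or 9 the FDR was 0.120 or 0.109.

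**Figure D4:**
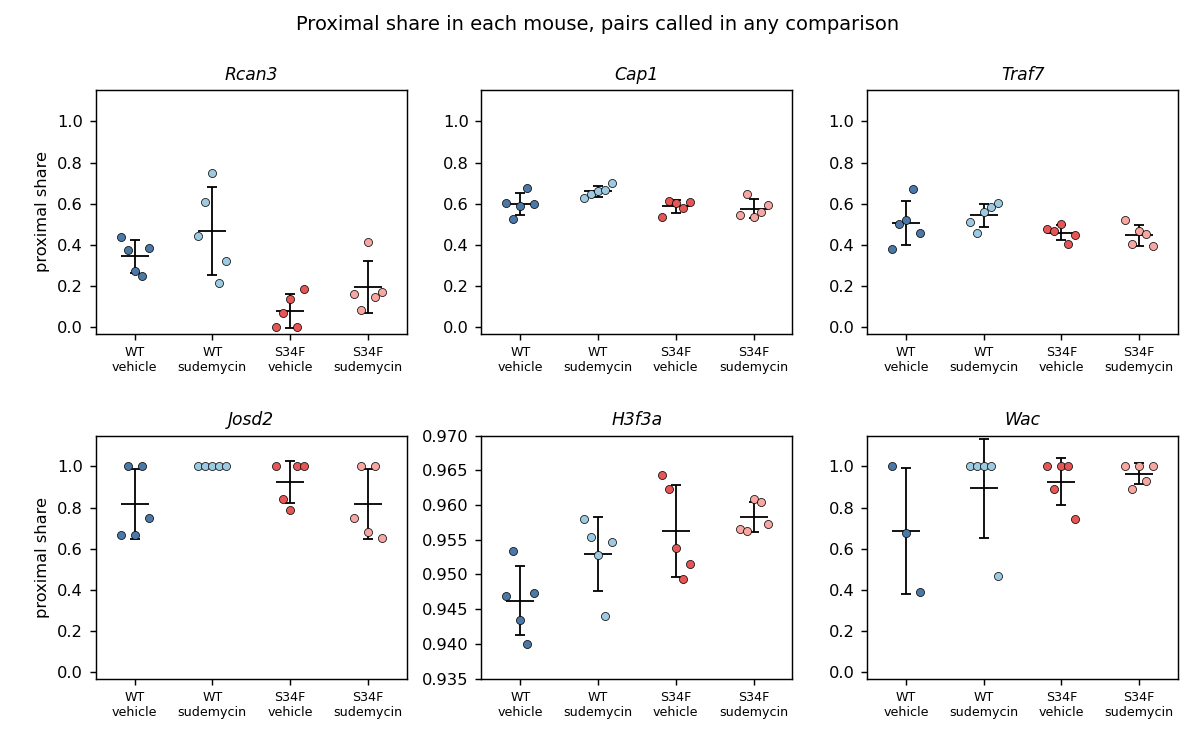
Proximal share (y axis, fraction of reads) in each mouse for the 6 pairs called in any comparison, by group (x axis). Points are mice and bars are the mean ± SD of the mice with reads (5, or 3 for Wac in WT with vehicle); the axis of H3f3a is narrow, from 0.935 to 0.970, while the others span 0 to 1. Rcan3 is below every WT vehicle mouse in every S34F vehicle mouse, and H3f3a is above every WT vehicle mouse in every S34F sudemycin mouse.

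The pairs with the smallest unadjusted p in the drug comparisons were not called by edgeR's test. Terf2, which encodes a telomere-binding protein, had a share of 0.690, 0.735, 0.727, 0.767 and 0.632 in WT mice with vehicle and 0.539, 0.578, 0.564, 0.525 and 0.420 with sudemycin. The groups did not overlap (0.710 ± 0.052 against 0.525 ± 0.062, SD, n = 5; exact permutation p = 0.00794), yet the FDR over all pairs was 0.238 by edgeR, while DESeq2 called the pair. In S34F mice the drug difference was -0.0486 (FDR 0.769), and the difference between the drug effects was not called.

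Trp53i11, a p53-inducible gene, differed by 0.358 between WT mice with sudemycin and with vehicle, from 0.179 ± 0.183 to 0.537 ± 0.236 (SD, n = 5; FDR 0.184) on 11 to 70 reads a mouse, and the groups overlapped. Josd2 differed by 0.183 in WT (FDR 0.238). In S34F mice, Ralgps1, a Ral guanine exchange factor gene, differed by -0.275 on 16 to 50 reads (FDR 0.292), Ogfod1, a prolyl hydroxylase gene, by 0.0497 (FDR 0.221) and Rnf6, a ubiquitin ligase gene, by -0.0150 (FDR 0.238).

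Further pairs named by the smallest p were likewise not called by edgeR's test, although Mllt4 was called between the genotypes under vehicle by DESeq2 (FDR 0.0965) and Irf4 with reads summed over 5′ sites (FDR 0.0970). Irf4, a transcription factor of lymphoid cells, stood at 0.546 ± 0.203 in WT and 0.794 ± 0.130 in S34F mice with vehicle (SD, n = 5; FDR 0.102), and Mllt4, the afadin gene, at 0.481 ± 0.156 and 0.732 ± 0.041 (FDR 0.164). Cnot3, a subunit of the CCR4-NOT deadenylase, stood at 0.120 ± 0.032 in WT with vehicle and 0.191 ± 0.061 in S34F with sudemycin (SD, n = 5; FDR 0.150).

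The base at position -3 was then used to describe the direction of change, since T before the AG is known to be disfavoured by U2AF1(S34F). Where T stood at the proximal site only, 117 tandem pairs had a median change between S34F and WT under vehicle of -0.000316, with quartiles at -0.0220 and 0.0254 and 60 pairs lower (51.3%). Under sudemycin the median of 118 pairs was 0.00299, with 56 lower (47.5%). 

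At the same class of bases, 50 pairs 4 to 6 bp apart had a median change of 0.000495 under vehicle (46.0% lower) and 21 pairs 7 to 12 bp apart one of 0.00116 (47.6% lower). At 13 to 30 bp the median was -0.00506 over 122 pairs (63.1% lower), at 31 to 100 bp -0.0162 over 224 pairs (72.8% lower) and at 101 to 200 bp -0.0176 over 122 pairs (72.1% lower). Under sudemycin the same bins gave 0.000281, -0.000464, -0.00671, -0.0175 and -0.0206. The bins were set after these data had been seen, the differences between them were not tested, and the pairs within a bin share libraries.

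Where T stood at the distal site only, 37 tandem pairs had a median change of 0.00126 under vehicle (48.6% lower) and 37 had one of -0.0172 under sudemycin (67.6% lower). Under sudemycin, pairs of this class had a median of -0.00195 at 4 to 6 bp (54.8% lower, 42 pairs) and 0.0134 at 31 to 100 bp (26.2% lower, 84 pairs). The bins at 7 to 12, 13 to 30 and 101 to 200 bp gave 0.000540, 0.00197 and 0.00605. Under vehicle the bins from 4 to 6 bp onward gave, in order of distance, 0.00312, -0.000973, -0.000106, 0.00154 and 0.00239. At 31 to 100 bp under vehicle 46.3% were lower. The differences between these distances were not tested. Leaving out S34F replicate 12 moved the tandem value under sudemycin to -0.00988. For the drug in WT the median of the T-distal tandem pairs was 0.0157 (35 pairs) and in S34F 0.00182 (38 pairs), and the T-proximal pairs had 0.00446 (115 pairs) and 0.00600 (118 pairs).

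**Figure D5:**
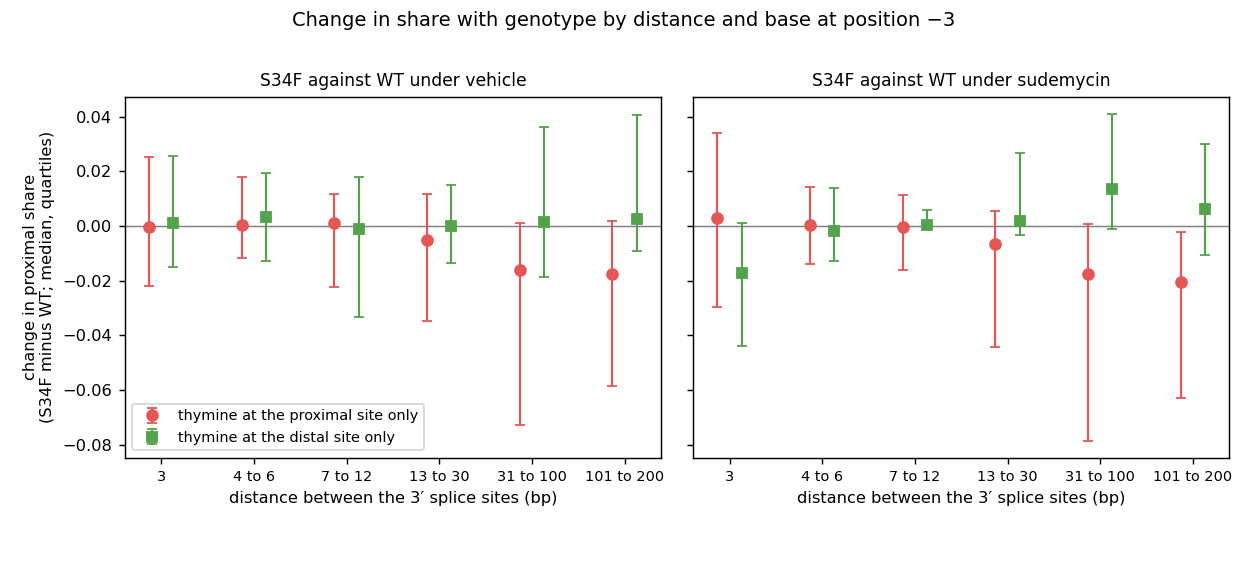
Change in proximal share between S34F and WT (y axis, S34F minus WT) by the distance between the 3′ sites (x axis, bp), under vehicle (left) and sudemycin (right). Symbols are medians over pairs with thymine at position -3 of the proximal site only (circles) or of the distal site only (squares), and bars are quartiles over pairs; the circles lie near 0 at 3 bp (-0.000316 and 0.00299) and below 0 beyond 12 bp, down to -0.0206.

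Host genes were also read by function, over the 500 tandem pairs tested in all 5 comparisons, of which 6 were called in some comparison. The list of spliceosome and RNA processing genes held 14 of these pairs in 12 genes, among them Srsf5, Srsf10, Hnrnpr, Celf1 and Rbm39, with a median share of 0.597, a median absolute change of 0.0216 and no call. Chromatin and recurrent myeloid neoplasm genes held 18 pairs in 15 genes, among them Arid1a, Smarca4, Setd2, Nf1, Etv6 and Gnas, with a median absolute change of 0.0205 and no call. Blood cell receptors and signalling genes held 9 pairs in 6 genes, namely Ebf1, Inpp5d, Irf4, Itgam, Pik3cd and Tcf3, with a median absolute change of 0.0247 and no call. The same median over all 500 pairs was 0.0235.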

How the data were processed

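Stranded total RNA depleted of ribosomal RNA was sequenced from bulk marrow of 20 mice (paired 126 bp reads). The authors aligned the reads with TopHat2 2.0.8 to mm9 and deposited 2 tables of raw counts, the whole numbers of reads on each gene and on each splice junction, with 1 column per mouse and no normalization. The counting program is not given in the sources used here. Short overhangs at sites 3 bp apart rest on the aligner's choice between them, which was not tested.

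Each table was read as deposited. Junction ends were matched to the genome and gene annotation of the same build, and bases, phase and location were read from these. The members and gene lists were chosen with earlier results of these data known, and so was the negative binomial dispersion of 0, which leaves all variation beyond Poisson to the quasi-likelihood term. Tests were run in edgeR 4.0.16 (R 4.3.3, robust fit) on the 10 mice compared, on every pair of junctions that shared a 5′ site with a mean of 10 reads per mouse and both sites used, and were tested on simulated data. Named pairs also got two-sided exact permutation tests (scipy 1.17.1). Alternatives were limma 3.58.1 on shares, DESeq2 1.42.0, an estimated dispersion, other read minimums and limits, summed 5′ sites, and leaving out each mouse.

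The text names called pairs whose groups do not overlap with 10 reads or more in each mouse, in a comparison with fewer than 3 such pairs the 3 with the smallest p, all other called pairs, and the 6 with the most reads on the less used site. Replicate numbers shared by both genotypes gave no sign that the mice were paired. The deviations of same-numbered mice correlated between -0.0463 and 0.0253 over 7 pairs of mice, all under 0.1. Mice with different numbers correlated between -0.0670 and 0.0874. All these values lie near 0, where counting noise can hide a shared batch or donor pool, so the check cannot exclude pairing. No 2 mice had identical counts. Intervals and limits from zero counts (3 reads) cover counting error only.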

Additional observations from a re-analysis of the deposited data

Results flagged for a closer look

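Dixon's test was applied to 79 of the 84 groups of mice at 21 named pairs, leaving out 5 groups with under 5 shares or with the same share in every mouse, and chance flags about 1 in 20 groups. It set 9 mice apart. Where the other 4 mice of a group all had a share of 1, the test flagged any lower share, however small the difference. This was so for the flags at Ogfod1, Rnf6 and Wac, which therefore do not show an unusual mouse. The chance rate does not hold for such groups. At Rcan3, S34F replicate 2 with sudemycin had a proximal share of 0.413 where the other 4 mice of its group had 0.0851 to 0.170. At Irf4, WT replicate 2 with vehicle stood at 0.897, at Mllt4, WT replicate 8 with sudemycin at 0.611, and at Ogfod1, WT replicate 12 with sudemycin at 0.870. At Rnf6, WT replicate 1 with vehicle stood at 0.977 and WT replicate 8 with sudemycin at 0.995, each beside 4 mice with a share of 1. At Wac, WT replicate 9 with sudemycin had 0.467, again beside 4 mice at 1. At 4632428N05Rik, S34F replicate 11 with vehicle had 0.777, and at Txnip, WT replicate 6 with sudemycin had 0.597.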

How the results depend on the processing

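The small counts of called tandem pairs moved with most choices and never exceeded 7 in any setting run. Under vehicle, the 1 call between genotypes became 2 with limma, DESeq2, a minimum of 20 reads or reads summed over 5′ sites, 3 with no read minimum (Rcan3, Irf4 and S100a9) and 0 with an estimated dispersion. Under sudemycin, the 3 calls became 1 with limma (Tapbp, none of the 3), 1 with DESeq2 (Josd2) and 0 at FDR 5% or with an estimated dispersion. For the drug in WT, 0 became 1 with DESeq2 (Terf2) and 2 with one model of all mice (Terf2, Trp53i11), and in S34F it became 1 with limma (Gpcpd1), DESeq2 (Cep250) or no read minimum (Rnf6), a different gene each time. The 2 calls of the combination became 1 at a limit of 5% on the change, at FDR 5% and with one model of all mice, 4 with no read minimum, 7 with limma (neither of the 2 among them) and 0 with an estimated dispersion. The interaction had 0 calls in every setting run. The cause of these moves was not tested. The shares of all pairs called at these settings, or without single mice, are not given here. The counts therefore do not show whether tandem pairs stayed below all pairs when the setting changed.

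Leaving out each mouse in turn gave 1 to 4 calls between genotypes under vehicle (4 without WT replicate 2; 3 without WT replicate 1 or 4 or S34F replicate 5 or 7; 2 without WT replicate 3 or 5), 2 to 5 under sudemycin (5 without WT replicate 6, 10 or 12), 0 to 1 for the drug in WT (1 without vehicle replicate 5 or sudemycin replicate 10), 0 to 1 in S34F (1 without vehicle replicate 7 or sudemycin replicate 9, 10 or 12) and 1 to 5 for the combination (5 and 4 without WT replicate 2 and 4; 1 without WT replicate 5 or S34F replicate 2 or 9). The median change at T-distal pairs between genotypes under sudemycin ran from -0.0218 to -0.00988, and for the drug in WT its mean was 0.0300 in place of the median.

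With a replicate block on the 3 or 4 shared numbers, 0 tandem pairs were called under vehicle and 0 under sudemycin. The same mice without the block, a setting chosen after the data were seen, gave 1 and 2 calls. Among the named pairs no change reversed its sign, 34 settings ended a call and 16 made one. Of the 6 called pairs, Rcan3, Josd2 and Wac had the fewest reads, with means of 43.7, 22.9 and 26.1 a mouse, which bounds the precision of their shares.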

Other observations

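Of the 14 tandem pairs with a site that lacks AG, 12 passed the read minimum, and at 8 of these the site without AG took under 15% of the reads. The others were named after their values were seen. The TTG proximal site of Cyth2, which encodes an exchange factor of ARF proteins, took 0.518 of the reads over all mice (0.437 to 0.647 in single mice), and that of Cnbp, a nucleic acid binding protein gene, took 0.338 (0.292 to 0.409) at a mean of 993 reads per mouse. The CTG site of Gnas took 0.661. At Eftud2, which encodes a GTPase of the spliceosome, the distal site ended in ATG and took 0.914 of the reads, with the rest on a proximal CAG. Cyth2, Cnbp and Gnas had TG before the exon at the proximal site and AG at the distal one, and so did Odf2, a centrosomal protein gene, where the CTG site took 0.138 (0.107 to 0.188).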
